A study of Arabidopsis thaliana with 12 samples.

Results

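The 55 genes described here encode proteins of the cytosolic ribosome of Arabidopsis thaliana, 35 of them in 17 protein families of the large subunit and 20 in 12 families of the small subunit. They were taken from a fixed list of loci, and a peak was counted for a gene when the deposited peak name began with its locus. They were 55 of the 35566 loci with a peak in any library. The libraries were made by CLIP-seq, in which RNA crosslinked to a protein is recovered with an antibody and sequenced, from Col-0 seedlings aged 14 days. The seedlings had been irradiated with ultraviolet light and expressed GFP alone, which served as the negative control, GFP-FIB1 or CFP-FIB2. Each of these 3 groups had 4 replicates. CFP-FIB2 carried another fluorescent tag than the control, and the labels name neither the promoter of the transgenes nor the state of the native FIB1 and FIB2 genes. Whether the replicates were grown separately is not stated, so p-values here cover the variation among these libraries alone, and that variation may be technical.

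Each ribosomal protein binds ribosomal RNA or neighbouring proteins in one of the ribosome's subunits, and plants carry several expressed gene copies for nearly every one of them. The mRNAs are made in large amounts in growing tissue. Fibrillarin, the protein encoded by FIB1 and FIB2, is the enzyme of particles built on box C/D small nucleolar RNA (snoRNA), which place methyl groups on the ribose of ribosomal RNA. Some snoRNAs are cut out of the introns of protein-coding genes, and ribosomal protein genes are well-known hosts of such snoRNAs. A peak that carries the name of a ribosomal protein gene can therefore lie on its mRNA or on a snoRNA within one of its introns.

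The libraries held 2858968 to 12844455 reads in peaks, and all 12 lists together gave these 55 genes 1132 peaks and 36188 reads. Reads in peaks of annotated snoRNA genes took 0.0832% to 0.884% of all reads in peaks with GFP, 1.09% to 17.3% with GFP-FIB1 and 1.44% to 18.5% with CFP-FIB2, so all tagged libraries lay above all control libraries. All 14 abundant leaf mRNAs examined for the tissue label (Rubisco small subunit, Rubisco activase and light-harvesting proteins) passed the filter on low values. The labels give no batches. By their correlation across 930 other protein-coding genes the libraries were clustered into 3 batches, a number that was set. Batch A was made up of GFP replicates 1 and 2, GFP-FIB1 replicate 1 and CFP-FIB2 replicate 1, and batch B of GFP replicate 3 and both tagged libraries numbered 2. The remaining 5 libraries formed batch C. Pearson's r between libraries across those genes was 0.630 to 0.925 within a batch and -0.497 to 0.506 between batches. The batches were formed from these same values, so a higher r within them is built in. CFP-FIB2 replicate 4 stood apart in its scaling factor, which was 0.285 against 0.950 to 1.34 in the other 11 libraries. Division by so small a factor raises every scaled level of that library.

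Reads on ribosomal protein genes were a small part of every library. The share of reads in peaks was 0.0232%, 0.0394%, 0.0204% and 0.0176% for GFP replicates 1 to 4. GFP-FIB1 had 0.0335%, 0.0883%, 0.0235% and 0.0294%, and in CFP-FIB2 0.0184%, 0.0798%, 0.0409% and 0.0138%. The groups overlapped, and the 2 high libraries were the tagged libraries of batch B. The means were 0.0251% ± 0.00976 for GFP, 0.0437% ± 0.0301 for GFP-FIB1 and 0.0382% ± 0.0301 for CFP-FIB2 (SD, n = 4 each). Without its replicate 2, GFP-FIB1 had a mean of 0.0288% and CFP-FIB2 one of 0.0244%.

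The excess of those libraries lay on snoRNA. Among all reads named for the 55 genes, 49.5% lay on an annotated intronic snoRNA, 37.2% in coding sequence, 8.19% in 3′ untranslated regions, 2.44% in 5′ untranslated regions and 2.66% elsewhere in introns. The snoRNA part was 3.77%, 9.52%, 23.3% and 19.4% of the ribosomal protein reads in GFP replicates 1 to 4. It was 4.84%, 75.1%, 32.1% and 25.5% in GFP-FIB1 and 7.47%, 72.9%, 34.3% and 55.1% in CFP-FIB2. With only peaks that overlap an exon, the tagged libraries of batch B held 0.0202% and 0.0194% of their reads on these genes and the GFP library of that batch held 0.0140%.

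**Figure D1:**
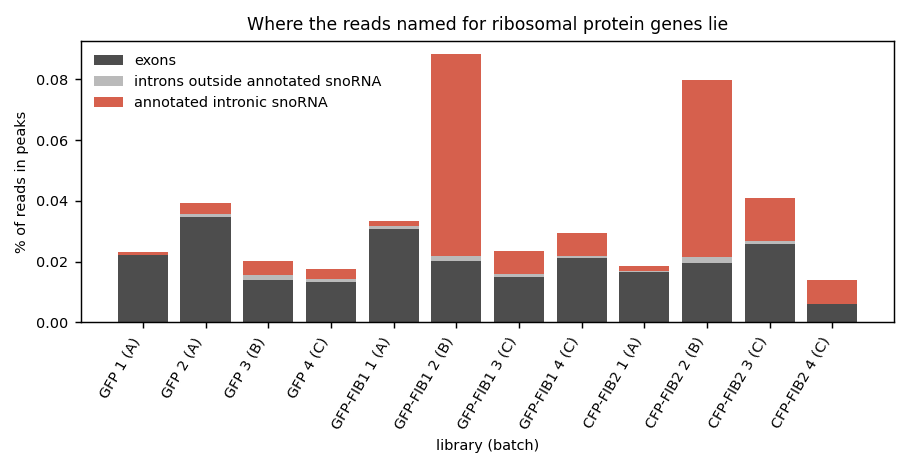
Percent of all reads in peaks that were named for the 55 ribosomal protein genes (vertical axis) in each library (horizontal axis, batch in brackets), split into peaks on exons, on introns and on annotated intronic snoRNA. The bars of GFP-FIB1 replicate 2 and CFP-FIB2 replicate 2 reach 0.0883% and 0.0798%, while their exon part is 0.0202% and 0.0194%.

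Coverage was broad but thin. Between 35 and 55 of the 55 genes had a peak in a library, every gene had a peak in at least 3 libraries, and 9 genes had one in all 12. Levels are given as RPM, the reads in the peaks of a gene for each 1000000 reads in the peaks of all tested genes, after scaling. A value of 0 means that no peak was called, not that no read was there, because the smallest peak held 3 reads. The mean RPM over the 12 libraries was below 5 in 44 of the 55 genes, and 49 genes (31 of the large and 18 of the small subunit) passed the filter on low values. The other 6 were the L9 gene AT1G33120, the L8 gene AT3G51190, the L24 gene AT3G53020, the L13 gene AT5G23900, the S21 gene AT5G27700 and the S8 gene AT5G59240. The 10 highest levels per kb of exon were those of AT4G17390 (L15) at 169 RPM, AT3G09630 (L4) at 24.5, AT1G67430 (L17) at 17.5, AT3G62870 (L7a) at 12.3, AT2G31610 (S3) at 10.4, AT2G19730 (L28) at 8.42, AT4G36130 (L8) at 7.58, AT1G27400 (L17) at 7.05, AT2G41840 (S2) at 5.51 and AT5G20290 (S8) at 4.88. Per kb of exon, the median level of the 49 genes was 2.82 RPM. It was 2.37 for 121 other cytosolic ribosomal protein genes that passed the filter, 21.9 for the 14 abundant leaf mRNAs and 1.63 for all 16669 nuclear protein-coding genes that passed. These levels are reads in peaks after recovery with an antibody, so they do not measure the amount of mRNA. In bulk seedlings, fewer cells that use a gene and less RNA per cell cannot be told apart either.

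The highest level belonged to AT4G17390, a gene for L15, a large-subunit protein. Its level per kb of exon was 169 RPM, against 1.66 for the second L15 gene, AT4G16720. Of the 17304 reads named for AT4G17390, 93.4% lay on the annotated snoRNA snoR151 (AT4G06705) in intron 2 of 4 exons, at chr4:9715045-9715195 on the minus strand of TAIR10.1. The same RNA was also listed under its own name, and all 28 peaks with the snoRNA's name overlapped a peak named for the host in the same library, so these reads can have been listed under both names. The full annotated snoRNA is shown because it carries most of the reads of the set, with the 2 strongest peaks of GFP-FIB1 replicate 2 in capitals (2362 reads in the first and 3537 in the second, 5′ to 3′).
snoR151: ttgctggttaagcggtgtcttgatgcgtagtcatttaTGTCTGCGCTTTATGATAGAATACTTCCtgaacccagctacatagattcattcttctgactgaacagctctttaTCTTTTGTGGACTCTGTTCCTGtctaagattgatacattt

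AT4G17390 had 1.31, 12.1, 57.0 and 76.4 RPM in GFP replicates 1 to 4, 13.5, 609, 109 and 120.4 in GFP-FIB1, and 9.52, 592, 167 and 325 in CFP-FIB2. Batch A libraries were low and the tagged libraries of batch B were high, and the groups overlapped. Its log2 fold change over GFP was the largest of the 49 genes in both tagged groups, 2.44 ± 1.47 (SE) for GFP-FIB1 and 2.82 ± 1.47 for CFP-FIB2, but limma's adjusted p was 1.00 in both. With a batch term it was 1.55 ± 0.65 (adjusted p = 0.575) and 1.93 ± 0.65 (adjusted p = 0.425). Within batches A, B and C the log2 difference from GFP was 1.40, 3.39 and 0.58 for GFP-FIB1 and 0.93, 3.35 and 1.60 for CFP-FIB2. The snoRNA under its own name had log2 fold changes of 2.76 ± 1.42 and 3.55 ± 1.42 (limma, adjusted p = 1.00 for both), and 1.96 ± 0.70 and 2.75 ± 0.70 with the batch term (adjusted p = 0.401 and 0.0872). With exon peaks only, the L15 gene had 0.73 ± 1.36 for GFP-FIB1 and 0.91 ± 1.36 for CFP-FIB2 (limma, adjusted p = 1.00 for both), and with exon peaks and the batch term the value for GFP-FIB1 was -0.03.

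The place of the reads within snoR151 differed between libraries. A site at the snoRNA's 5′ end, 27 nt wide, had peaks in 6 libraries, with 12.2 and 18.97 RPM in GFP replicates 3 and 4, 19.1 and 22.2 in the GFP-FIB1 pair with those numbers, and 66.3 and 202 in the CFP-FIB2 pair. In that last pair the site held 611 of 8760095 and 673 of 12844455 reads in peaks. The value of 202 RPM is thus raised by the scaling factor of replicate 4. This 5′ site had no peak in the tagged libraries of batch B, whose reads lay on the rest of the snoRNA, where a site of 115 nt held 609 RPM in GFP-FIB1 and 592 RPM in CFP-FIB2. A further site of 18 nt in exon 3 held 0.855 and 36.3 RPM in GFP replicates 3 and 4, 23.7 and 36.99 in the same pair of GFP-FIB1 and 39.6 and 35.7 in that of CFP-FIB2. At the exonic site the GFP library of batch C lay within the range of the tagged libraries of that batch.

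**Figure D2:**
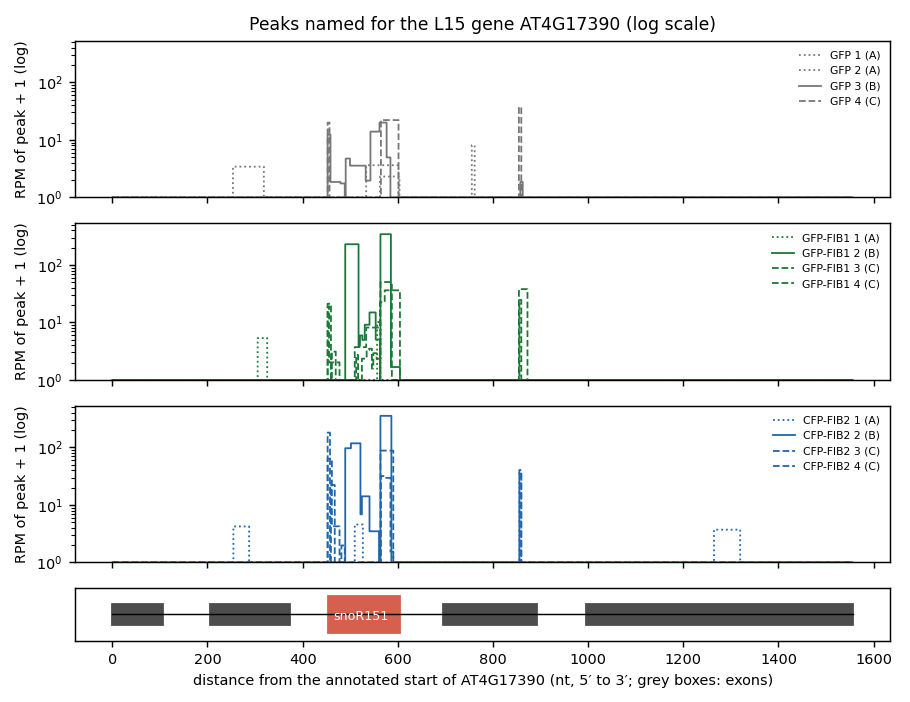
Peaks named for AT4G17390 along the gene (horizontal axis, nt from its annotated start, with exons in grey and snoR151 in red below), as RPM of the peak + 1 on a log axis, in 1 panel for each group and with line styles by batch. The solid lines of batch B are highest over snoR151 in both tagged groups, where the highest single peaks reach 342 RPM with GFP-FIB1 and 354 RPM with CFP-FIB2, and the exonic peak to the right has dashed lines of batch C in all 3 panels.

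Both genes for L17, a large-subunit protein that lines the exit tunnel, also carried an annotated snoRNA in an intron. AT1G67430 holds AtsnoR74-1 (AT1G08937, chr1:25262574-25262706, plus strand) and AT1G27400 holds AtsnoR74-2 (AT1G06087, chr1:9515628-9515750, plus strand), each in intron 3 of 7 exons. The snoRNA took 81.8% of the 1458 reads of the first gene and 97.3% of the 592 reads of the second. They are shown because the reads of both L17 genes rest on them, with the strongest peak of GFP-FIB1 replicate 2 in capitals (295 reads in AtsnoR74-1 and 74 in AtsnoR74-2).
AtsnoR74-1: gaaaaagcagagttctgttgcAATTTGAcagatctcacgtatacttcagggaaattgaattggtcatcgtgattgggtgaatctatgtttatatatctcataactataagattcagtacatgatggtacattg
AtsnoR74-2: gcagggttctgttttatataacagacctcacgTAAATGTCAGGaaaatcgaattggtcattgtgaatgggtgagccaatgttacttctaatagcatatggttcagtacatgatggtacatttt
The copies were identical at 99 of 134 aligned positions (73.9%).

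AT1G67430 had 1.96, 15.4, 4.28 and 4.49 RPM in GFP replicates 1 to 4, 18.1, 58.8, 5.62 and 1.15 in GFP-FIB1, and 15.1, 43.6, 6.07 and 0 in CFP-FIB2. AT1G27400 had 8.82, 18.2, 2.03 and 0 RPM in GFP, 6.41, 18.6, 3.91 and 0 in GFP-FIB1, and 4.42, 17.1, 0 and 4.50 in CFP-FIB2. The groups overlapped for both genes, and the highest tagged libraries were again those of batch B. AT1G67430 had a log2 fold change of 0.88 ± 1.13 (SE) for GFP-FIB1 and 0.46 ± 1.13 for CFP-FIB2, and AT1G27400 had 0.08 ± 1.05 and -0.02 ± 1.05 (limma, adjusted p = 1.00 for all 4). With exon peaks only, AT1G67430 had 1.94 ± 0.72 for GFP-FIB1 over GFP, -0.39 ± 0.72 for CFP-FIB2 over GFP and -2.33 ± 0.72 for CFP-FIB2 over GFP-FIB1 (limma, adjusted p = 1.00 for all 3). With exon peaks and the batch term these were 2.34 ± 0.58 (adjusted p = 0.0671), 0.02 ± 0.58 (adjusted p = 0.999) and -2.33 ± 0.56 (adjusted p = 0.964). Only 265 of its reads over the 12 libraries lay outside the snoRNA.

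The 3 host snoRNAs shared short sequence features. The hexamer TGATGA, the core of the box C motif, was searched on the snoRNA strand and was in none of the 3, while 49.8% of the 287 annotated snoRNA genes held it. ACA within the last 7 bases was in all 3 and in 25.4% of the 287. These are matches of letters in the annotated sequence and name no class. In AtsnoR74-2 the ACA lies at the very start of those 7 bases, so a shorter window would miss it. AtsnoR74-1 and AtsnoR74-2 are similar copies, so the 3 snoRNAs are not independent matches. The 3 hosts were the only genes of the 55 with an annotated snoRNA on their own strand. Among 169 other cytosolic ribosomal protein genes, 6 had one.

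Away from snoRNA, the highest level was that of AT3G09630, a gene for L4, whose extended loop reaches into the wall of the exit tunnel. Its level per kb was 24.5 RPM, against 2.75 for the second L4 gene, AT5G02870. AT3G09630 had 63.02, 14.2, 46.6 and 12.98 RPM in GFP replicates 1 to 4, 37.5, 41.5, 31.7 and 27.02 in GFP-FIB1, and 17.7, 38.7, 75.4 and 76.8 in CFP-FIB2. The groups overlapped, and the means of GFP and GFP-FIB1 were 34.2 ± 24.7 and 34.4 ± 6.37 RPM (SD, n = 4 each).

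A pair of short sites in exon 1 held 24.9% and 71.6% of the gene's RPM summed over libraries, and the batches used different ones. The site at chr3:2954229-2954231 held 63.02 and 11.1 RPM in GFP replicates 1 and 2, 37.5 in GFP-FIB1 replicate 1 and 7.14 in CFP-FIB2 replicate 1, and outside batch A only 1.497 in GFP replicate 3. The site at chr3:2954296-2954310 held 45.1 and 12.98 RPM in GFP replicates 3 and 4, 40.02, 30.5 and 27.02 in the later 3 GFP-FIB1 libraries, and 36.2, 75.4 and 76.8 in the later 3 of CFP-FIB2 (replicates 2 to 4 of each). In batch A this second site had a peak only in GFP replicate 2, with 1.62 RPM. Both lie in coding sequence on the plus strand, and the window chr3:2954209-2954330 is shown with the 2 sites in capitals to place them within 1 stretch of mRNA.
L4 AT3G09630: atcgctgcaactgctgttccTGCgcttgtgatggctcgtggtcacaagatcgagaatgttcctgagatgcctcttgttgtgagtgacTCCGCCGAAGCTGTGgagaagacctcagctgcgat

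Peaks of the 12 libraries that shared at least 1 base were merged into 523 sites, 324 in coding sequence, 105 in 3′ untranslated regions, 32 in 5′ untranslated regions, 57 in introns and 5 on snoRNA. A gene had between 2 and 18 sites, with a median of 9. Of the 523 sites, 343 (65.6%) had a peak in 1 library only, 36 in 6 or more, and 1 in all 12, which was the larger snoR151 site. Of the 180 sites with peaks in 2 or more libraries, 13 were in batch A only, 83 in batches B and C only and 84 in both. These counts were not adjusted for the number or depth of libraries. Batch A holds fewer libraries than batches B and C together. Its libraries had 2858968, 4775962, 4193064 and 7986363 reads in peaks, and the median of all 12 was 7727090.

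The 5 strongest sites held 51.2% of all RPM at the 523 sites. A gene was taken to have a single strong site where 1 site held at least 50% of its RPM and had a peak in at least 6 libraries. This held for 10 of the 55 genes, 8 of the large and 2 of the small subunit. Besides the L15 gene, both L17 genes and AT3G09630, they were AT5G02870 (L4), AT1G26910 (L10), AT1G61580 (L3), AT1G33120 (L9), AT2G31610 (S3) and AT2G41840 (S2). The nearest genes inside the threshold were AT1G61580 at 52.4% and AT5G02870 at 56.2%, and the nearest outside it were AT2G19730 (L28) at 47.7% and AT5G41520 (S10) at 47.4%.

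The strongest of these outside L15, L17 and L4 was in AT2G31610, a gene for S3, a small-subunit protein at the mRNA entry. A site of 6 nt in exon 3 of 5, at chr2:13450800-13450805 on the plus strand, held 86.8% of the gene's RPM. It is shown in capitals with 20 bases on each side.
S3 AT2G31610: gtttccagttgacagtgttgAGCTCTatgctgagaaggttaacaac
The site held 0.980, 0, 17.4 and 9.65 RPM in GFP replicates 1 to 4, 0, 5.51, 6.13 and 60.9 in GFP-FIB1, and 0, 4.78, 12.6 and 13.2 in CFP-FIB2. All batch A libraries were below 1 RPM, GFP-FIB1 replicate 4 was far above the rest, and the groups overlapped. Of the 18-nt words over this site, 17.4% occur elsewhere in the genome.

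The other single strong sites were lower. AT2G41840, a gene for S2, which like S3 lies at the mRNA entry, had 0, 8.49, 10.8 and 8.82 RPM in GFP replicates 1 to 4, 0, 8.02, 10.2 and 11.1 in GFP-FIB1, and 11.4, 9.26, 3.58 and 6.30 in CFP-FIB2. Its site of 156 nt in exon 1 held 67.6% of that and had peaks in 10 libraries, and the groups overlapped. The second L4 gene and AT1G33120 had theirs in the 3′ untranslated region, with up to 9.16 and 3.09 RPM. AT1G61580, a gene for L3, had a coding site with at most 1.92 RPM in 8 libraries.

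AT1G26910, a gene for L10, was the only one with a single strong site in an intron that holds no annotated snoRNA. The site of 8 nt in intron 1, at chr1:9321741-9321748 on the plus strand, held 67.7% of the gene's RPM and is shown in capitals with 20 bases on each side because of that position.
L10 AT1G26910: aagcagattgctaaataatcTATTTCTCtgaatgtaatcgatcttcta
It held 0, 0, 0.855 and 0.666 RPM in GFP replicates 1 to 4, 0, 3.96, 2.21 and 2.87 in GFP-FIB1, and 0, 2.29, 0.976 and 0.900 in CFP-FIB2. No batch A library had a peak there. Within batches B and C the tagged libraries had higher RPM than the GFP libraries. However, CFP-FIB2 replicate 4 held 3 reads, the smallest number in any peak, against 8 and 4 in GFP replicates 3 and 4. Its place above GFP rests on its scaling factor of 0.285. The gene as a whole had log2 fold changes of 0.88 ± 0.63 (SE) for GFP-FIB1 and 0.85 ± 0.63 for CFP-FIB2 (limma, adjusted p = 1.00 for both), and 0.58 ± 0.51 and 0.55 ± 0.51 with the batch term (adjusted p = 0.864 and 0.923).

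A further 5 genes had a site over 50% of their RPM with peaks in fewer than 6 libraries, and at AT4G36130 and AT3G55280 those were the 4 libraries of batch A. AT4G36130 encodes L8, which lies close to the peptidyl transferase centre. Its site of 7 nt in exon 2 of 2, chr4:17098565-17098571 on the plus strand, held 87.9% of the gene's RPM.
L8 AT4G36130: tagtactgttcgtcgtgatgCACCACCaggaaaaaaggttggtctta
The site, in capitals, held 48.98 and 12.3 RPM in GFP replicates 1 and 2, 26.3 in GFP-FIB1 replicate 1, 11.05 in CFP-FIB2 replicate 1 and 0 in the other 8 libraries. AT3G55280, a gene for L23a, had 6.20, 3.64, 11.2 and 3.57 RPM in the same libraries at a site of 16 nt in its 5′ untranslated region, and 0 elsewhere.

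AT3G62870, a gene for the large-subunit protein L7a, had one main site in each set of batches. The first, in exon 4 of 6 at chr3:23243446-23243461 on the minus strand, had 14.04 and 33.2 RPM in GFP replicates 1 and 2, 5.49 in GFP-FIB1 replicate 1 and 23.5 in CFP-FIB2 replicate 1, and no peak outside batch A. The second, in exon 5 at chr3:23243149-23243183, had 14.3 and 31.1 RPM in GFP replicates 3 and 4, 0, 2.51, 3.57 and 0 in GFP-FIB1, and 2.04, 18.6, 5.86 and 0 in CFP-FIB2. Both are shown in capitals with 20 bases on each side, since the gene's difference from GFP was present at both.
L7a AT3G62870 exon 4: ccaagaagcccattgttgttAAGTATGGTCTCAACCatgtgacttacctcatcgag
L7a AT3G62870 exon 5: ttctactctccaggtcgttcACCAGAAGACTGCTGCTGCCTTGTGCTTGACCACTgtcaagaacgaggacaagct
At each of the 2 sites GFP-FIB1 lay below GFP in every library of the batches that used it. Of the 18-nt words over the exon 5 site, 19.2% occur elsewhere in the genome, and of those over the exon 4 site none.

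**Figure D3:**
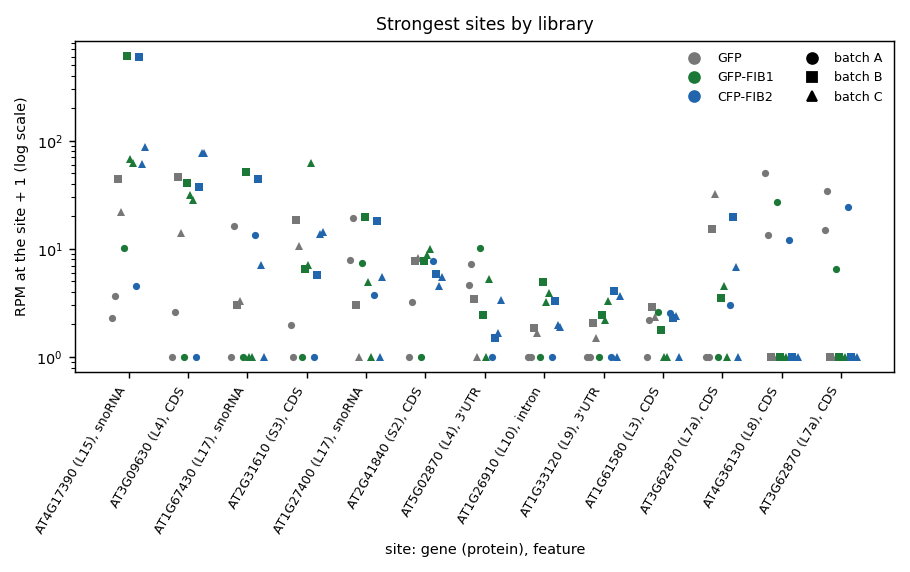
Level at the 10 single strong sites, at the L8 site of AT4G36130 and at both L7a sites of AT3G62870 (horizontal axis), as RPM + 1 on a log axis, with 1 point for each library, colours for groups and shapes for batches. The circles of batch A are at 1, meaning no peak, in most libraries at AT3G09630 (L4), S3 and L10. They are the only points above 1 at L8 and at the exon 4 site of L7a on the far right.

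The first comparison set GFP-FIB1 against GFP, to ask which ribosomal protein mRNAs came down with the tagged protein and not with the tag. None of the 49 genes tested passed limma's test on log2(RPM + 1) at an adjusted p under 0.05, in a fit that called 1 of all 19529 genes tested (0.00512%). With a batch term the fit called 159 of all genes (0.814%) and again 0 of the 49. At an unadjusted p under 0.05, 1 gene was higher and 1 was lower, and 4 and 1 with the batch term. Such genes were 1.98% and 1.16% of all genes without the batch term and 3.37% and 4.16% with it. Without the batch term the median log2 fold change was 0.10 over the 49 genes and 0.05 over all genes. Positive values were found in 27 of the 49 against 52.9% of all genes. In that fit the members' median was -0.04 without GFP replicate 1 and also without GFP replicate 4. With the batch term the median was 0.23 over the 49 genes, with 30 positive. Over all genes it was -0.07, with 8749 of 19529 positive. The difference between the 49 and all genes was not tested. By subunit the median without the batch term was 0.10 for 31 large-subunit genes and 0.19 for 18 small-subunit genes. With the batch term the order was reversed, at 0.24 and 0.06.

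The gene with the lowest value was AT3G62870 (L7a), which had 18.3, 36.99, 14.3 and 31.1 RPM in GFP replicates 1 to 4 and 5.49, 4.74, 5.79 and 3.64 in GFP-FIB1. The groups did not overlap, the only case of the 49 in this direction, while 0.932% of all genes tested were separated downward. The log2 fold change was -2.07 ± 0.93 (SE, adjusted p = 1.00, limma), and it was -2.06, -1.42 and -2.52 within batches A, B and C. Its paralog AT2G47610 had -0.50 ± 0.76.

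Separated upward was AT2G39460, a gene for L23a at the mouth of the exit tunnel, against 1.01% of all genes. It had 0.980, 2.43, 2.14 and 1.83 RPM in GFP and 4.58, 4.06, 2.89 and 2.49 in GFP-FIB1, a small difference at a low level (log2 fold change 0.67 ± 0.53, SE, adjusted p = 1.00, limma). After L15, the largest positive values belonged to AT1G04270 (S15, in the head of the small subunit), AT3G11940 (S5, near the mRNA exit) and AT1G14320 (L10). S15 had 0, 3.64, 0.748 and 1.17 RPM in GFP and 14.4, 2.42, 2.72 and 3.64 in GFP-FIB1, with a log2 fold change of 1.42 ± 0.63 (adjusted p = 1.00, limma). S5 had 0, 0.809, 2.35 and 3.00 RPM in GFP and 8.24, 3.38, 6.13 and 2.30 in GFP-FIB1. L10 had 0, 3.84, 1.92 and 3.83 RPM in GFP and 20.1, 3.29, 3.06 and 3.26 in GFP-FIB1. In each of the 3 the highest library was GFP-FIB1 replicate 1, a batch A library, and the groups overlapped. Within batches A, B and C the log2 difference from GFP was 2.84, 0.97 and 0.94 for S15. It was 2.78, 0.39 and 0.28 for S5, and 3.26, 0.55 and -0.21 for L10.

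The other low values were those of AT4G36130 (L8) at -1.06 ± 1.08, and of AT5G39740 and AT3G25520 at -0.88 ± 0.69 and -0.77 ± 0.66 (SE). The last 2 encode L5, the carrier of 5S ribosomal RNA. For L8 the value was -0.20 ± 0.57 with the batch term.

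**Figure D4:**
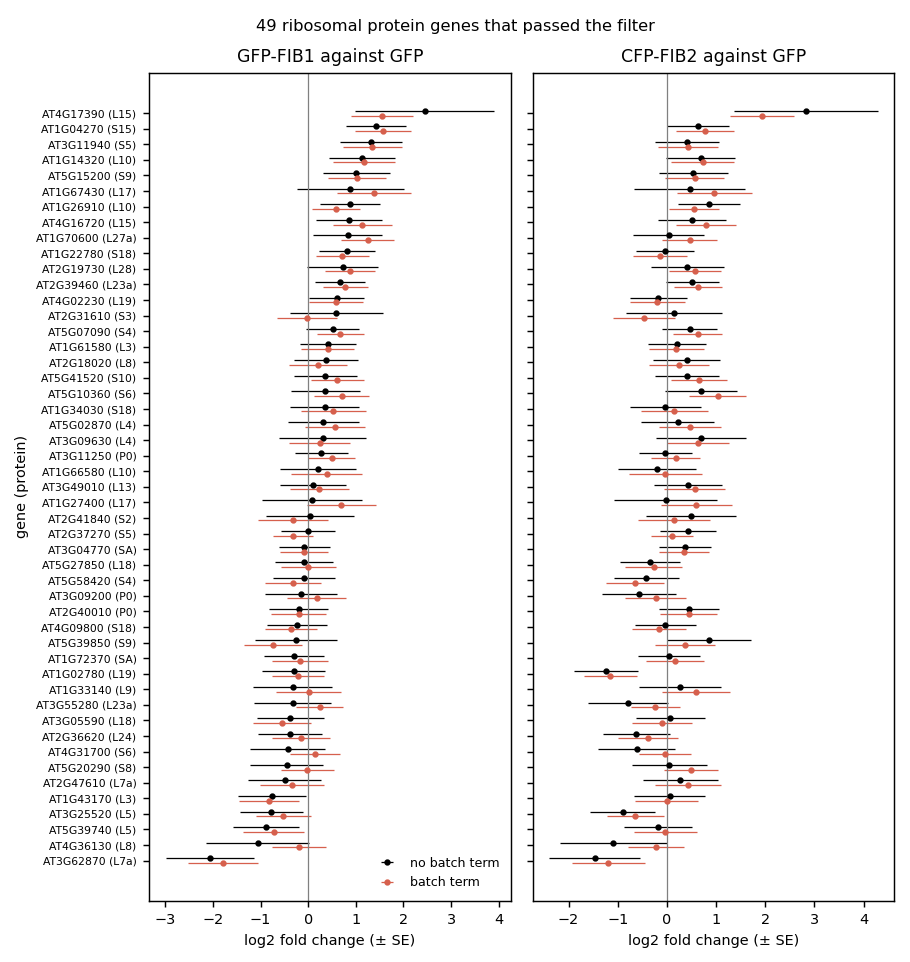
Log2 fold change over GFP (horizontal axes) of the 49 genes that passed the filter (vertical axis, sorted by the value for GFP-FIB1), for GFP-FIB1 on the left and CFP-FIB2 on the right. Points are limma estimates and bars are ± 1 SE, in black without and in red with a batch term. L15 is at the top with 2.44 and 2.82 and L7a at the bottom with -2.07 and -1.47, and no gene of the 49 reached an adjusted p under 0.05.

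The same question for CFP-FIB2 gave 0 of 49 genes at an adjusted p under 0.05 with limma, in a fit that called 1 of all genes (0.00512%), and 0 of 49 with the batch term, which called 141 of all genes (0.722%). At an unadjusted p under 0.05 there were none in either direction, against 2.45% of all genes higher and 0.502% lower. With the batch term they were the L15 gene, higher, and AT1G02780, lower, against 3.77% and 2.49% of all genes. The median log2 fold change was 0.20 over the 49 genes, with 31 positive, against 0.14 over all genes, 58.4% of which were positive. Scaled to all reads in peaks instead, both medians turned negative, at -0.03 and -0.09. On the main scale with the batch term the median was 0.24 over the 49 genes, with 31 positive. Over all genes it was 0.00457, with 9821 of 19529 positive. The difference between the 49 and all genes was not tested. Both tagged groups were compared with the same 4 GFP libraries, so their values are not independent of each other.

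By subunit the median for CFP-FIB2 was 0.07 for 31 large-subunit genes, with 18 positive, and 0.38 for 18 small-subunit genes, with 13 positive. With the batch term these medians were close, at 0.24 and 0.25. Neither subunit's difference from the other was tested. No gene of the 49 had groups that did not overlap, against 1.64% of all genes separated upward and 0.522% downward. After L15 the largest values were 0.85 ± 0.63 (SE) for AT1G26910 (L10), 0.85 ± 0.86 for AT5G39850 (S9) and 0.69 ± 0.91 for AT3G09630 (L4). S9 had 0.980, 2.22, 5.24 and 2.66 RPM in GFP and 0, 7.26, 6.07 and 25.2 in CFP-FIB2. In replicate 4 all of its reads lay on a site of 3 nt in exon 2, while 7 other libraries had a peak at a site in exon 3.

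The lowest values for CFP-FIB2 belonged to AT3G62870 (L7a) at -1.47 ± 0.93 (SE), AT1G02780 (L19, a protein of an intersubunit bridge) at -1.24 ± 0.65, AT4G36130 (L8) at -1.09 ± 1.08 and AT3G25520 (L5) at -0.90 ± 0.66. L7a had 25.5, 20.8, 9.65 and 0 RPM in CFP-FIB2, which overlapped GFP. Its log2 difference from GFP was -0.03, 0.51 and -3.30 within batches A, B and C, and without CFP-FIB2 replicate 4 its fold change was -0.42. For L8 the value was -0.23 ± 0.57 with the batch term. L19 had 2.94, 7.88, 5.77 and 4.99 RPM in GFP and 1.02, 4.58, 3.04 and 0 in CFP-FIB2. The 0 in both genes came from replicate 4, in which 37 of the 55 genes had a peak.

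The last comparison set the tagged paralogs against each other. No gene of the 49, and none of all 19529 genes (0.0%), reached an adjusted p under 0.05 with limma, with or without the batch term. Without it, none of the 49 had an unadjusted p under 0.05, against 0.86% of all genes higher and 0.41% lower in CFP-FIB2. With it there were also none of the 49, against 2.88% and 1.72%. The median log2 difference of CFP-FIB2 from GFP-FIB1 was -0.10, with 20 of 49 positive, against 0.09 over all genes, 56.8% of which were positive. Scaled to all reads in peaks, these medians were -0.28 and -0.16. The members' median was 0.02 without GFP-FIB1 replicate 1 and 0.13 without CFP-FIB2 replicate 4.

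The largest positive differences between the paralogs were 1.10 ± 0.86 (SE) for AT5G39850 (S9), 0.81 ± 0.72 for AT1G43170 (L3), 0.77 ± 0.76 for AT2G47610 (L7a) and 0.69 ± 0.69 for AT5G39740 (L5). The largest negative ones were -0.94 ± 0.65 for AT1G02780 (L19), -0.92 ± 0.65 for AT3G11940 (S5), -0.86 ± 0.59 for AT1G22780 (S18) and -0.79 ± 0.63 for AT1G04270 (S15). Each was less than 2 standard errors from 0, and the groups overlapped for every gene, against 0.748% and 0.41% of all genes separated upward and downward. These values are over all peaks of a gene. For the L15 gene the difference was 0.38 ± 1.47, and -0.13 scaled to all reads in peaks.

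Gene copies of a family differed in level. Per kb of exon the higher copy had 102 times the level of the lower one for L15, whose reads lay mainly on snoRNA, 8.89 times for L4, 7.65 times for L8 over 3 genes, and 4.35 times for L7a. For S6 the ratio was 1.08 and for L5 1.13. The copies of S8, a small-subunit protein, had 4.88 and 0.127 RPM per kb, and the lower one, AT5G59240, had peaks of 4 or 5 reads in 3 libraries. The L9 genes AT1G33120 and AT1G33140 were the only pair with over 20% of their 25-nt words elsewhere in the genome, so their reads may be split between them.

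The other cytosolic ribosomal protein genes, 169 in the list and 121 tested, gave medians of -0.03 for GFP-FIB1, 0.02 for CFP-FIB2 over GFP and 0.06 between the paralogs. Without the batch term limma called none of the 121. At an unadjusted p under 0.05, 3 were higher and 4 lower for GFP-FIB1, against 1.98% and 1.16% of all genes. For CFP-FIB2 they were 6 and 4, against 2.45% and 0.502% of all genes. With the batch term limma called 0.814% of all genes for GFP-FIB1 and 0.722% for CFP-FIB2. Of the 121, 1 was called in each of these comparisons. It was AT4G29410, the second gene for L28, which is named here after its values were seen and which holds 4 annotated snoRNAs that took 100.0% of its reads. It had 2.94, 13.9, 73.5 and 319 RPM in GFP replicates 1 to 4, 23.8, 2639, 4643 and 5709 in GFP-FIB1, and 19.7, 3162, 2758 and 3659 in CFP-FIB2. The log2 fold changes with the batch term were 3.42 ± 0.70 (SE, adjusted p = 0.0156) and 3.07 ± 0.70 (adjusted p = 0.0415). The first L28 gene, AT2G19730, holds no annotated snoRNA and had 5.55, 6.87, 2.46 and 3.66 RPM in GFP, 16.9, 5.51, 4.77 and 8.24 in GFP-FIB1, and 11.1, 0.896, 11.3 and 8.40 in CFP-FIB2. Its log2 fold changes were 0.73 ± 0.74 and 0.42 ± 0.74 (adjusted p = 1.00 for both, limma).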

How the data were processed

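CLIP-seq peak lists of 12 libraries (3 groups of 4) were analysed. The authors deposited 1 list per library without a header. The p-value of each peak is the authors' own and was under 0.05. The deposited peak name ends in a whole number of at least 3, read here as the reads in the peak; the sources do not say what it is, so no count model was run. Per the submitters' processing notes DESeq2 was used, with no version given. Aligner, peak caller, genome build and any duplicate removal: not given in the sources used here. Depth outside peaks is unknown, and unique molecules cannot be counted.

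Gene bounds came from RefSeq TAIR10.1: of 633752 gene-named peaks, 624188 had an annotated locus, 99.9% inside it and 100% on its strand, as were all 1132 ribosomal protein peaks. Sequences are from the same RefSeq assembly. Reads per gene were scaled to reads in peaks of tested genes with a TMM factor (trims of 30% and 5%), which gives RPM. Genes were tested if at least 4 libraries had the equivalent of 10 reads in a library of median size and the sum reached 15, which left 19529. limma 3.58.1 (R 4.3.3) with a mean-variance trend was fitted to log2(RPM + 1) over all 12 libraries, with Benjamini-Hochberg adjustment over all genes; fold changes of low genes are understated by the pseudocount of 1. limma was also tested on simulated data. Batches came from clustering the libraries on 930 other genes, cut into 3 groups. Same-numbered GFP-FIB1 and CFP-FIB2 libraries deviated together (r = 0.824, 0.631, 0.669 and 0.727). They also shared their batch, so these values cannot show that the numbers pair them. A replicate block changed no call between these groups.

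Genes named were the 10 highest per kb, the 4 largest changes each way in each comparison, those with an adjusted p under 0.05, the 10 strongest single sites, those with separated groups and those with no peak. The genes and lists were chosen with earlier results of these data known. A gene's share at a site is of its RPM summed over libraries. Words of 18 and 25 nt were matched against the whole genome.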

Additional observations from a re-analysis of the deposited data

Results flagged for a closer look

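In 7 of 78 groups of 4 libraries examined (8.97%), 1 library lay so far from the other 3 that it passed Dixon's 95% limit. The genes flagged had been named for high levels, large changes or strong sites in these data. This share therefore has no chance rate to be set against. AT1G04270 (S15), AT1G14320 (L10) and AT4G36130 (L8) had 14.4, 20.1 and 26.3 RPM in GFP-FIB1 replicate 1, against at most 3.64, 3.29 and 1.87 in the other GFP-FIB1 libraries. AT4G36130 also had 13.6 RPM in CFP-FIB2 replicate 1 against at most 2.89. AT2G31610 (S3) had 60.9 RPM in GFP-FIB1 replicate 4 against at most 8.51, all of it at the exon 3 site. AT5G20290 (S8) had 19.003 RPM in GFP replicate 2 against at most 3.92. The share of reads in peaks on all 55 genes was 0.0883% in GFP-FIB1 replicate 2 against at most 0.0335%, and 75.1% of those reads lay on host snoRNA. The values of S15, L10, L8 and S8 came from batch A libraries; the part of batch in them was not tested.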

How the results depend on the processing

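None of the 55 ribosomal protein genes of this list was called under any of 35 settings. The smallest limma adjusted p of a member in any setting was 0.0671 for GFP-FIB1, 0.0804 for CFP-FIB2 and 0.853 between the paralogs. The number of all genes called, 1 in each comparison with GFP, changed as follows for GFP-FIB1 and CFP-FIB2. It was 168 and 177 with the replicate block, 159 and 141 with the batch term, 140 and 123 with exon peaks and the batch term, and 23 and 9 scaled to protein-coding reads. It was 0 and 0 with a pseudocount of 5 and with overlapping peaks reduced. For CFP-FIB2 it was also 0 scaled to all reads in peaks, with exon peaks only and with peaks of p under 0.01. Without 1 replicate it was 0 to 15 for GFP-FIB1, the 15 without GFP-FIB1 replicate 1, and 0 to 3 for CFP-FIB2, the 3 without CFP-FIB2 replicate 1. With the batch term and without 1 replicate it was 78 to 199 and 65 to 194. GFP libraries and the GFP-FIB1 and CFP-FIB2 libraries of the same number deviated together for replicate 1 (r = 0.871 and 0.841) and replicate 4 (0.831 and 0.730). These share a batch. For replicates 2 and 3, which do not, r was -0.110 and -0.404, and 0.495 and 0.230. A pairing by number therefore cannot be told apart from batch. The median log2 fold change of the 49 genes ranged from 0.03 to 0.42 for GFP-FIB1 and from -0.03 to 0.39 for CFP-FIB2 over the settings with all libraries. Without 1 library it ranged from -0.04 to 0.38, from 0.00 to 0.42 and, between the paralogs, from -0.17 to 0.13. The value of AT4G17390 for GFP-FIB1 turned from 2.44 to -0.0273 with exon peaks and the batch term, which leaves out the snoRNA reads by construction. With 70% in place of 50%, 5 genes in place of 10 had a single strong site, with shares scaled to all reads in peaks 11 did, the added gene being AT5G39850, with peaks up to 10 nt apart merged 13 did, and without 1 library 9 to 14 did. Near 0, the log2 fold change of AT1G27400 changed sign with overlapping peaks reduced for GFP-FIB1 (-1.002), and for CFP-FIB2 with no filter (0.0117), peaks of p under 0.01 (0.00451) and the batch term (0.596); without 1 library it was -0.684 to 0.869 and -0.783 to 0.736. That of AT1G67430 for CFP-FIB2 was -0.386 with exon peaks, and without 1 library -0.336 to 1.4904, and -1.22 to 0.608 between the paralogs. That of AT4G17390 between the paralogs was -0.128 scaled to all reads, and -0.567 to 1.61 without 1 library. Site shares scaled to all reads, exon peaks with the batch term, and settings without a library for shares, sites and the batch term, were chosen after seeing the data.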

Other observations

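The other 169 ribosomal protein genes together took 0.0277% to 0.0648% of the peak reads of the GFP libraries, 0.0405% to 0.548% of the GFP-FIB1 and 0.0262% to 0.350% of the CFP-FIB2 libraries. In batches B and C, 85.1% to 93.9% of these reads lay on annotated snoRNA in the tagged libraries and 17.5% and 42.2% in the GFP libraries. In batch A the snoRNA part was 7.19% with GFP-FIB1, 14.0% with CFP-FIB2, and 4.93% and 5.53% with GFP. The 6 host genes of this list hold 12 annotated snoRNAs.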
